A study of Mus musculus with 8 samples.

Results

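Complex I (NADH:ubiquinone oxidoreductase) is the entry point of the mitochondrial respiratory chain: it takes electrons from NADH, passes them along a row of iron-sulfur clusters to ubiquinone and pumps protons across the inner membrane. Its peripheral arm carries the redox centres and its membrane arm the proton channels, and most of its subunits are encoded in the nucleus, the rest in mitochondrial DNA. Early mouse embryos rely on mitochondria inherited from the egg, and their mRNAs at this stage can be maternal or newly made.

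The genes described here are the nuclear-encoded subunits, taken as every symbol of the deposited table that starts with Nduf, then a, b, c, s or v, then a digit. The rule found 37 of 34976 symbols, spread over 146 transcript rows that were summed per symbol. Of these, 31 had a mean FPKM (fragments scaled to transcript length and library size) of at least 1 over all libraries and were tested among 11755 genes. Ndufa3, Ndufa4l2, Ndufa5, Ndufa8, Ndufs4 and Ndufs6 lay below that level. The symbols fit the label of the group with 1 qualification: Ndufa4 and its relative Ndufa4l2 match by name, but the Ndufa4 protein is now placed with complex IV. Ndufab1, the mitochondrial acyl carrier protein that also sits in complex I, does not match by name and is given with the other lists. Ndufb1 is not analysed here.

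The study compared late 2-cell embryos of the outbred CF-1 mouse stock that had been injected at the early 1-cell stage. Controls received a scrambled control morpholino, and the other group received morpholinos that, by the label, target the transcription start site of Med13, whose protein belongs to the Mediator kinase module; another label calls these embryos a MED13 knockdown. Each group had 4 independent collections of 40 pooled embryos, so a library averages over embryos, and replicates are numbered here only to name them. Both groups carry an injected morpholino, no uninjected embryos are part of the comparison, and embryo ages are not given beyond the stage.

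The libraries held 31378977 to 48050262 fragments, as read back from the FPKM steps with a step taken to be 0.5 fragments. Med13 mRNA itself, summed over its transcript rows, was 41.1, 38.5, 38.2 and 47.5 FPKM in scrambled replicates 1 to 4 and 43.9, 39.4, 41.7 and 43.8 FPKM in Med13 morpholino replicates 1 to 4 (log2 difference 0.03, two-sided exact permutation p = 0.629 over 70 assignments, smallest possible 0.0286). The mRNA level does not check a morpholino that blocks translation, and protein was not measured. All 9 genes of a list typical of 2-cell embryos, such as Zscan4d and Zfp352, were present above 1 FPKM on average. Of these 9, limma called 7 higher after Med13 morpholino, where 9.29% of all genes tested were. Most of the list comes from the Zscan4, Tcstv and Usp17l gene families. Near-identical copies were not searched for in this list, so these calls may share reads and are not separate observations. The summed level of the 9 ran from 51.4 to 139 FPKM in controls and from 174 to 418 FPKM after Med13 morpholino. The part of this shift in the results below was not tested. The 10 cumulus cell markers summed to at most 1.58 FPKM in any library, with none passing the filter. The 7 blood and immune cell markers summed to 4.33 to 7.33 FPKM in controls and 6.67 to 8.29 FPKM after Med13 morpholino. The latter range leaves out Med13 morpholino replicate 4, which has no globin values. The globins Hba-a1 and Hba-a2 reached at most 2.50 and 2.66 FPKM in controls and 3.71 and 3.13 FPKM after Med13 morpholino. Of the 7, limma tested only Cd68, which was not called (adjusted p = 0.705). The source of these reads was not tested.

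After Med13 morpholino, Ndufa1 and Ndufa2 rose and no other subunit gene passed the test. The 2 calls among 31 genes (6.45%) stand beside 2010 calls among all 11755 genes tested (17.1%), with limma at a Benjamini-Hochberg adjusted p below 0.05. By direction, 2 members and 9.29% of all genes were higher, and 0 members and 7.81% of all genes were lower. At an unadjusted p below 0.05 there were 4 members, all of them higher, or 12.9% of the members against 32.4% of all genes. Ndufa1 was the 1 member whose groups did not overlap, where 10.4% of all genes lay wholly higher and 11.1% wholly lower after Med13 morpholino. No test was made of the list as a whole.

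The log2 fold changes of the 31 genes, on the log2(FPKM + 1) scale, ran from -0.43 for Ndufa12 to 0.70 for Ndufa1, with a median of 0.11 against -0.06 over all genes tested. There were 18 values above 0 and 13 below, and 44.5% of all genes lay above 0. For 27 of the 31 genes the 95% interval of the fold lay within a 2-fold change in either direction, and over all 31 the intervals spanned 0.528 to 2.22. The calls depended on single libraries: with 1 library left out, between 0 and 3 members passed (0 without scrambled replicate 1 or 4 or Med13 morpholino replicate 2 or 3, 1 without scrambled replicate 3 or Med13 morpholino replicate 4), and with sample weights 9 passed, 4 higher and 5 lower, where 36.9% of all genes passed. The shares of all genes that passed with 1 library left out are not given here, so those member counts have no background beside them. FPKM are relative to the size of each library, so these values do not give the amount of RNA per embryo or per cell.

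**Figure D1:**
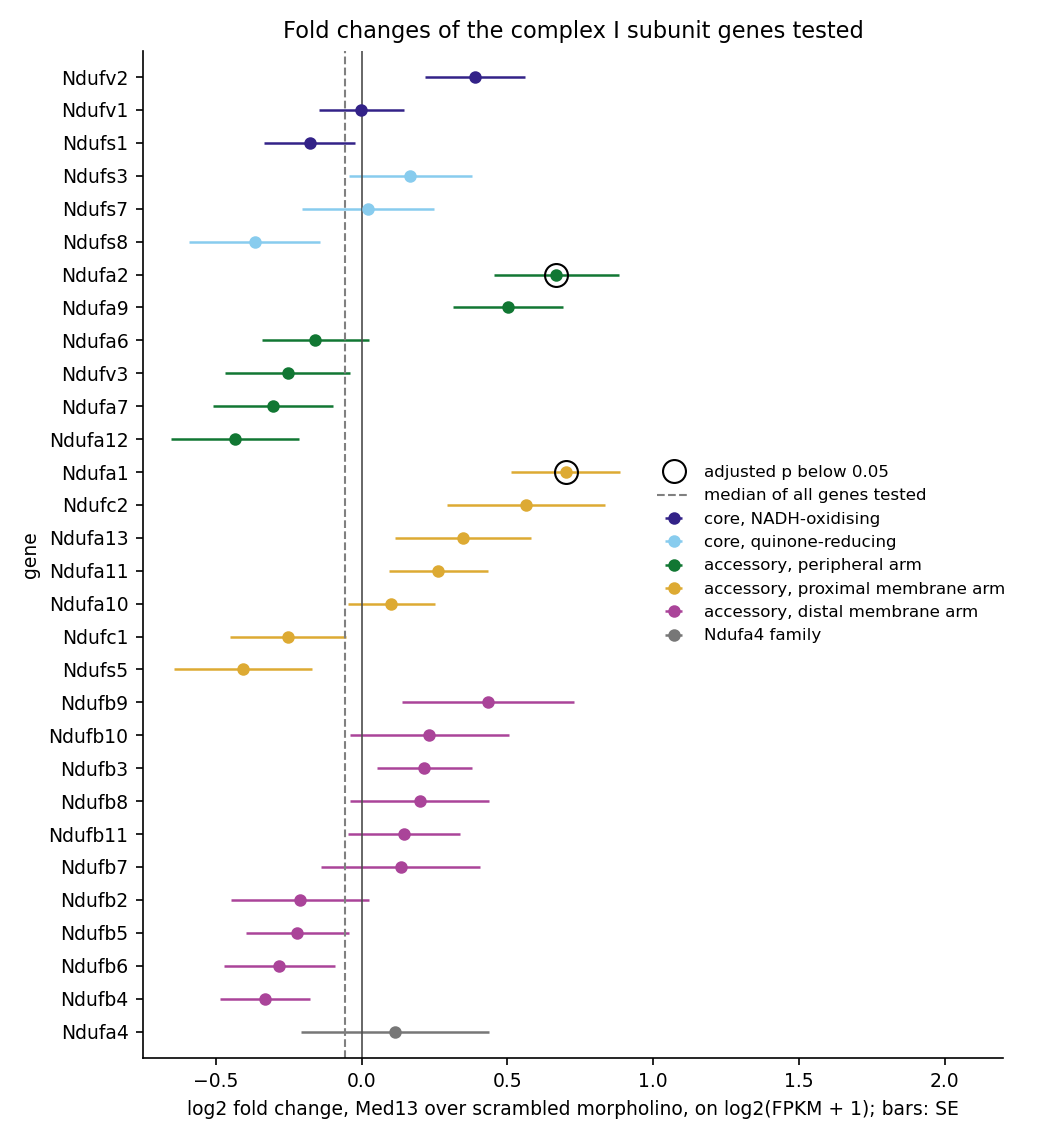
Log2 fold change of the tested subunit genes reported here (x axis, Med13 over scrambled morpholino on log2(FPKM + 1), bars are SE) ordered by structural group (y axis, colour). The ringed genes are Ndufa1 and Ndufa2; the other genes lie on both sides of 0 with SE bars up to 0.32 wide on either side, and the dashed line is the median of all genes at -0.06.

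Ndufa1 encodes a short membrane-anchored subunit at the junction of the arms that complex I needs in order to assemble; the gene (ENSMUSG00000016427) lies on chromosome X of GRCm38, 37187588 to 37191163, minus strand. Its level was 7.38, 10.5, 8.77 and 5.48 FPKM in scrambled replicates 1 to 4 and 11.5, 12.9, 15.6 and 13.6 FPKM in Med13 morpholino replicates 1 to 4. Every Med13 morpholino library was above every control library. The means were 8.03 ± 2.12 and 13.4 ± 1.67 FPKM (SD, n = 4 each), a log2 fold change of 0.70 ± 0.19 (SE, limma adjusted p = 0.0250), with a 95% interval of the fold from 1.22 to 2.15. Ndufa1 has 1 transcript row of 419 bases, which held 77.0 to 262 fragments per library, and no near-identical copy was found for it. The call was lost without scrambled replicate 1 or 4 and without Med13 morpholino replicate 2 or 3 (limma adjusted p = 0.0600, 0.0668, 0.0653 and 0.0767) and with no filter on low values (0.0796).

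The promoter of Ndufa1 is shown because it belongs to the subunit gene whose groups did not overlap, and those of Ndufa9 and Ndufc1, chosen after their values were seen, because each holds a core motif of the transcription factor YY1 just after the start and they had fold changes of opposite sign. Each is the RefSeq promoter window of 300 bases (250 before to 50 after the annotated start, GRCm38.p6), written 5′ to 3′ on the strand of the gene, with the motif in capitals.
Ndufa1: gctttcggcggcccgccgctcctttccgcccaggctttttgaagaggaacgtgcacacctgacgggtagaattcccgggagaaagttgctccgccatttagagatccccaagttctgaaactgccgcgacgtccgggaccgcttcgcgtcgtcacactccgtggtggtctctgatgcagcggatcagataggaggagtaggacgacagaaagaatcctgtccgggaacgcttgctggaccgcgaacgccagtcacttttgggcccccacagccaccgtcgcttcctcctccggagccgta
Ndufa9: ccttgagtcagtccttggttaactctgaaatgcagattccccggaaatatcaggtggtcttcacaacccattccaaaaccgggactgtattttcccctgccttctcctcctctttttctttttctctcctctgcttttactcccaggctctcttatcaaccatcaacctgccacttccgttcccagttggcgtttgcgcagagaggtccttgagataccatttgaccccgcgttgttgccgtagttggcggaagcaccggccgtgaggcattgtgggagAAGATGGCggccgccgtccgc
Ndufc1: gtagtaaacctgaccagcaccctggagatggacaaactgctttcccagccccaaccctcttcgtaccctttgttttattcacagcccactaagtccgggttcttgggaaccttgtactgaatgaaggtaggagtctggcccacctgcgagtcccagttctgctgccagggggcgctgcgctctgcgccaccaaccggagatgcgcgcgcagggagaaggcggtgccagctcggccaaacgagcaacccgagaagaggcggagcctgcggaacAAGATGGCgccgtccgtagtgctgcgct
The windows are chrX:37191189-37191488 for Ndufa1, chr6:126849095-126849394 for Ndufa9 and chr3:51408906-51409205 for Ndufc1, all on the minus strand. They are set by the RefSeq start. For Ndufa1 the window lies wholly upstream of the gene position given above, whose start by GENCODE is at 37191163.

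Exact matches on either strand were counted for 3 motifs of factors known to act on respiratory genes in mammals, in the 32 members with a promoter in the RefSeq table and in all 27025 genes of it. The YY1 core AAGATGGC stood in the promoters of 7 members, or 21.9%, against 3.19% of all genes: Ndufa3, Ndufa9, Ndufb8, Ndufc1, Ndufs4, Ndufs6 and Ndufs7. In Ndufa9 it begins at base 30 after the start and in Ndufc1 at base 23. The NRF1 core GCGCATGC stood in 3 members (9.38%, Ndufa6, Ndufa8 and Ndufa11) against 3.05% of all genes, and the ETS motif CCGGAAGT in 1 (3.13%, Ndufs3) against 4.31%. The motifs do not overlap one another in the printed windows, and a match describes letters, not binding. The YY1 core also holds ATG, the letters of a start codon. Whether its matches lie at start codons was not checked. The 4 tested members with the YY1 core had log2 fold changes from -0.25 to 0.50 with a median of 0.11. Limma called 0 of them at an adjusted p below 0.05, where 17.1% of all genes passed. With 4 genes this count cannot tell them from all genes. The promoters of the members were richer in G and C, with a median of 59.0% against 52.7% over all promoters.

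Ndufa2 encodes a small thioredoxin-like subunit of the peripheral arm and was the most abundant member, with a mean of 25.2 FPKM (ENSMUSG00000014294, GRCm38 chromosome 18, 36742332 to 36744557, minus strand). Its level was 19.0, 22.7, 20.5 and 14.0 FPKM in scrambled replicates 1 to 4 and 20.3, 31.1, 34.9 and 38.8 FPKM in Med13 morpholino replicates 1 to 4. Replicates 2 to 4 after Med13 morpholino lay above all controls, while replicate 1 lay among them. The means were 19.1 ± 3.67 and 31.3 ± 7.97 FPKM (SD, n = 4 in either group). The log2 fold change was 0.67 with an SE of 0.21, just inside the threshold (limma adjusted p = 0.0499). It was not called with a pseudocount of 0.1, with the most abundant transcript only, with the moved rows realigned or with no filter (limma adjusted p = 0.0531, 0.0559, 0.0510 and 0.146). Leaving out 1 library gave adjusted p values from 0.0157 to 0.130, and the call was kept only without scrambled replicate 2 or Med13 morpholino replicate 1. Tmco6 shares 11.5% of its exonic bases.

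Ndufa9, a subunit of the peripheral arm related to short-chain dehydrogenases, had the next lowest p-value and a log2 fold change of 0.50 ± 0.19 (SE, limma adjusted p = 0.0878). It went from 9.79 ± 2.19 to 14.3 ± 3.12 FPKM (SD, n = 4 each), and control replicate 1, at 12.8 FPKM, lay above 2 of the Med13 morpholino libraries. It passed with median-ratio scaling, quantile normalization and sample weights (limma adjusted p = 0.0375, 0.0392 and 0.0387).

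**Figure D2:**
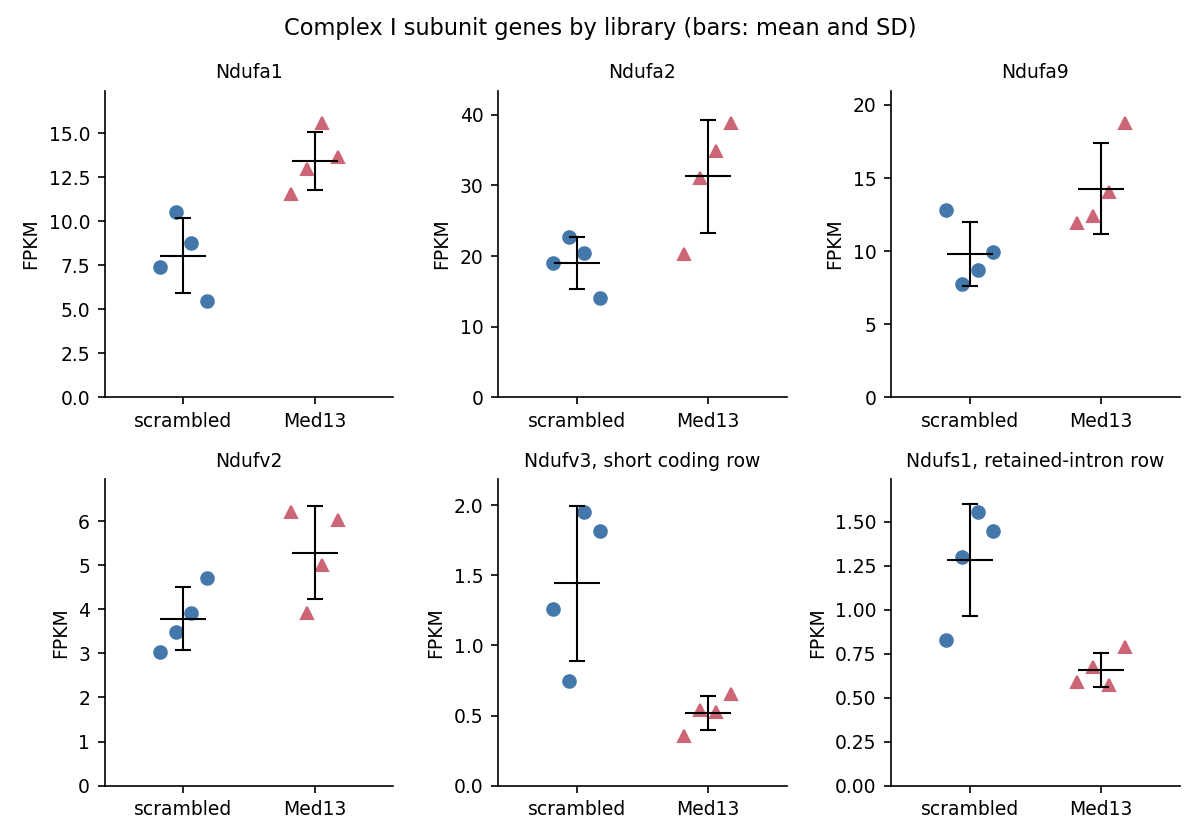
FPKM (y axis, from 0) of 4 subunit genes and 2 single transcript rows in each scrambled (circles) and Med13 morpholino (triangles) library, with mean and SD bars. Ndufa1 and both transcript rows show no overlap of the groups, while for Ndufa2, Ndufa9 and Ndufv2 1 or more libraries of the groups interleave.

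The 7 nuclear-encoded core subunits carry the redox chemistry. Limma called 0 of the 7 at an adjusted p and 1 at an unadjusted p below 0.05 (Ndufv2), where 17.1% and 32.4% of all genes passed, with a median log2 fold change of 0.02. Ndufv1 binds NADH and the flavin that first takes up its electrons. It was 2.84, 2.47, 2.27 and 2.97 FPKM in scrambled replicates 1 to 4 and 2.38, 2.70, 2.26 and 3.24 FPKM in Med13 morpholino replicates 1 to 4. The groups covered almost the same range, and the fold interval ran from 0.80 to 1.24. Ndufv2, the iron-sulfur protein beside it, was 3.03, 3.49, 3.91 and 4.71 FPKM in controls and 6.21, 3.92, 4.996 and 6.02 FPKM after Med13 morpholino (log2 fold change 0.39 ± 0.17 SE, limma adjusted p = 0.141). Its highest control lay above the lowest Med13 morpholino library. Ndufs1, the large subunit that holds further clusters of the same module, was 6.15, 4.85, 5.70 and 6.89 FPKM in controls and 4.14, 5.33, 5.94 and 4.96 FPKM after Med13 morpholino, with interleaved groups.

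In the quinone-reducing module the groups overlapped for each gene described. Ndufs3, a structural subunit of this module, was 5.75, 5.09, 6.88 and 5.59 FPKM in controls and 4.73, 6.81, 5.45 and 10.8 FPKM after Med13 morpholino, where replicate 4 stood alone above the controls. Ndufs7 holds the last cluster before ubiquinone. It was 4.31, 2.64, 3.85 and 5.42 FPKM in controls and 2.96, 4.77, 2.95 and 6.09 FPKM after Med13 morpholino. Ndufs8, another cluster-bearing subunit, was 8.998, 7.90, 12.8 and 10.5 FPKM in controls and 4.60, 7.69, 7.73 and 11.03 FPKM after Med13 morpholino. It had the lowest log2 fold change of the core, -0.37 ± 0.23 (SE, limma adjusted p = 0.280), with 3 of 4 Med13 morpholino libraries below all controls.

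Among the 23 accessory subunits tested, Ndufa1 and Ndufa2 were called, where 17.1% of all genes were. The median log2 fold change of the 23 was 0.13, against -0.06 over all genes. In the proximal membrane arm 5 of 7 tested genes had values above 0. Ndufc2, a small membrane subunit, had a log2 fold change of 0.56 ± 0.27 (SE, limma adjusted p = 0.173), with control replicate 4 at 0.668 FPKM and the other 3 controls between 2.25 and 3.66 FPKM. Ndufs5, which lies on the intermembrane side, fell short of the threshold at -0.41 ± 0.24 (SE, adjusted p = 0.254), and without scrambled replicate 2, whose level of 0.670 FPKM was the lowest, it was called lower. In the distal membrane arm limma called 0 of 10 genes at an adjusted p and 0 at an unadjusted p below 0.05, against 17.1% and 32.4% of all genes, with values from -0.33 for Ndufb4 to 0.43 for Ndufb9. Ndufb4, the least abundant member that passed the filter, was 1.10, 1.197, 1.64 and 1.32 FPKM in controls and 0.685, 0.504, 1.03 and 1.19 FPKM after Med13 morpholino (limma adjusted p = 0.159). In the peripheral arm Ndufa12 and Ndufa7 lay at the lower end, with -0.43 ± 0.22 and -0.30 ± 0.21 (SE), and neither passed. Ndufa4 was at 4.39 to 14.4 FPKM in controls alone, the widest SE among the members (0.32).

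Levels differed more between subunits than between groups. Per length of transcript, the 31 tested genes spanned a 23.2-fold range of mean FPKM, and their median of 4.29 FPKM was near that of all tested genes, 4.49. The top of the order was Ndufa2 at 25.2, Ndufb11 at 22.9, Ndufb2 at 14.8, Ndufa9 at 12.0 and Ndufa1 at 10.7 FPKM, and neighbours in this order overlapped in their libraries. The 6 genes below the filter included Ndufs4, at 0.960 ± 0.214 and 0.930 ± 0.280 FPKM (SD, n = 4 each), a peripheral-arm subunit whose loss in mice causes a Leigh-like encephalopathy. Ndufa8 was at 0.724 ± 0.428 and 0.331 ± 0.0976 FPKM, and Ndufa4l2 was above 0 in 1 control library only, at 0.0276 FPKM. None of the 6 had groups that did not overlap.

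**Figure D3:**
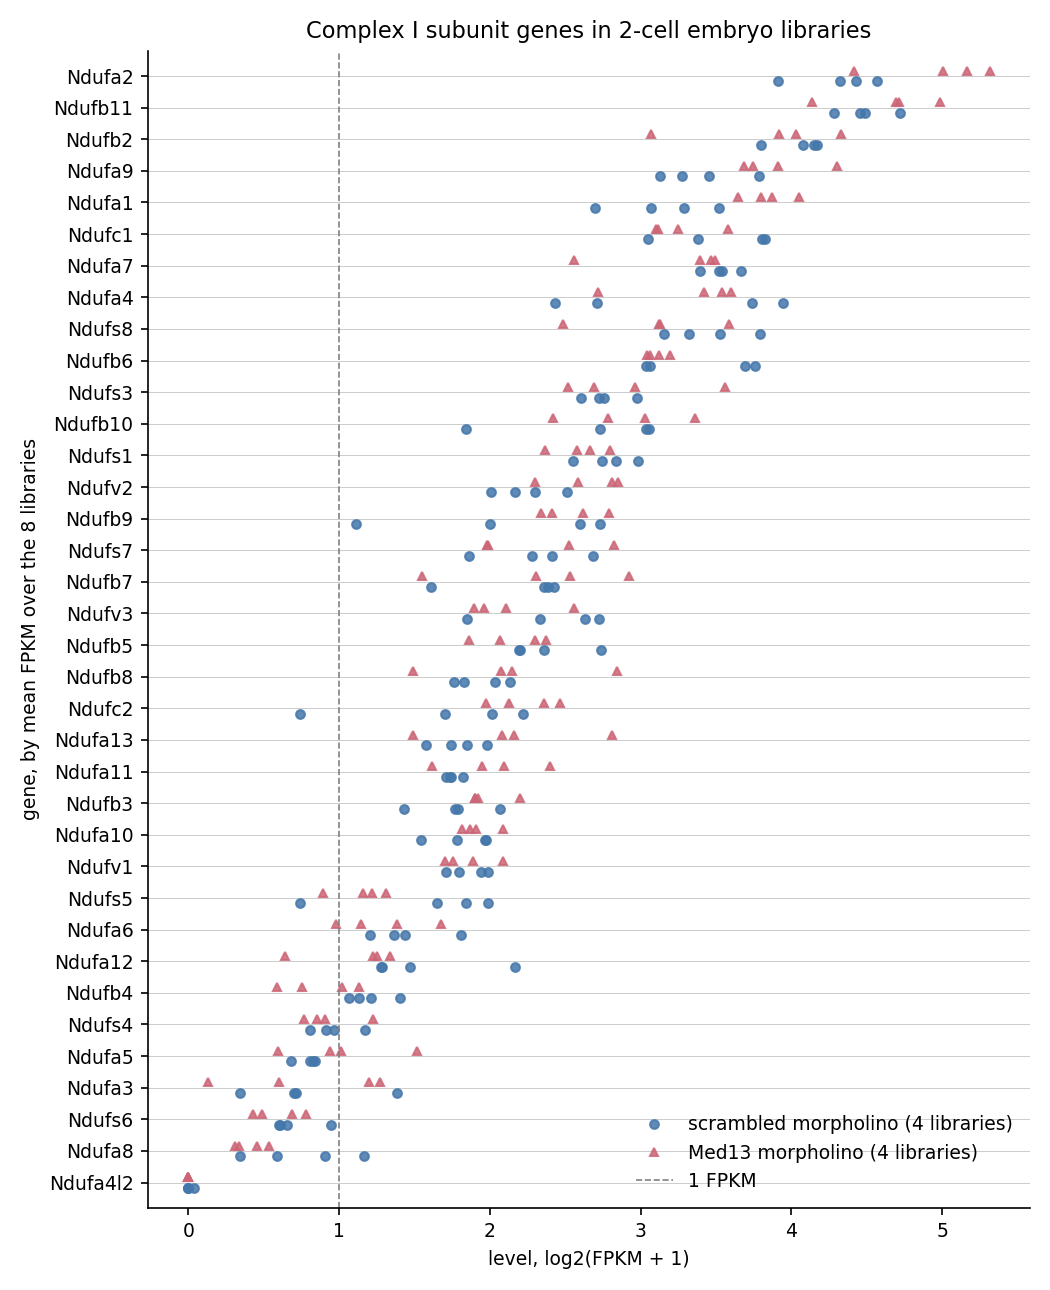
Level of the subunit genes reported here in every library, as log2(FPKM + 1) (x axis), ordered by mean FPKM (y axis); circles are scrambled and triangles Med13 morpholino libraries. The symbols of the groups mix in nearly every row, apart from Ndufa1, and the dashed line marks 1 FPKM, the filter.

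Summed over the 37 genes, controls held 206, 184, 212 and 190 FPKM in replicates 1 to 4, and Med13 morpholino libraries held 164, 219, 228 and 266 FPKM. Med13 morpholino replicate 1 was the lowest of the 8 libraries for 13 of the 31 tested genes, and replicate 4 was the highest for 13. Over all genes tested, replicate 1 was the lowest for 27.4% and replicate 4 the highest for 18.8%. Scrambled replicate 2 was the lowest for 9 members and for 29.2% of all genes. The median deviation of the members from their own means ran from -0.09 to 0.08 in controls and from -0.27 to 0.32 after Med13 morpholino. Over all genes tested it ran from -0.16 to 0.10 in controls and from -0.12 to 0.07 after Med13 morpholino, and the difference in spread was not tested. The median log2 fold change of the members was -0.04 without Med13 morpholino replicate 4, -0.02 without scrambled replicate 2 and 0.14 without Med13 morpholino replicate 1.

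**Figure D4:**
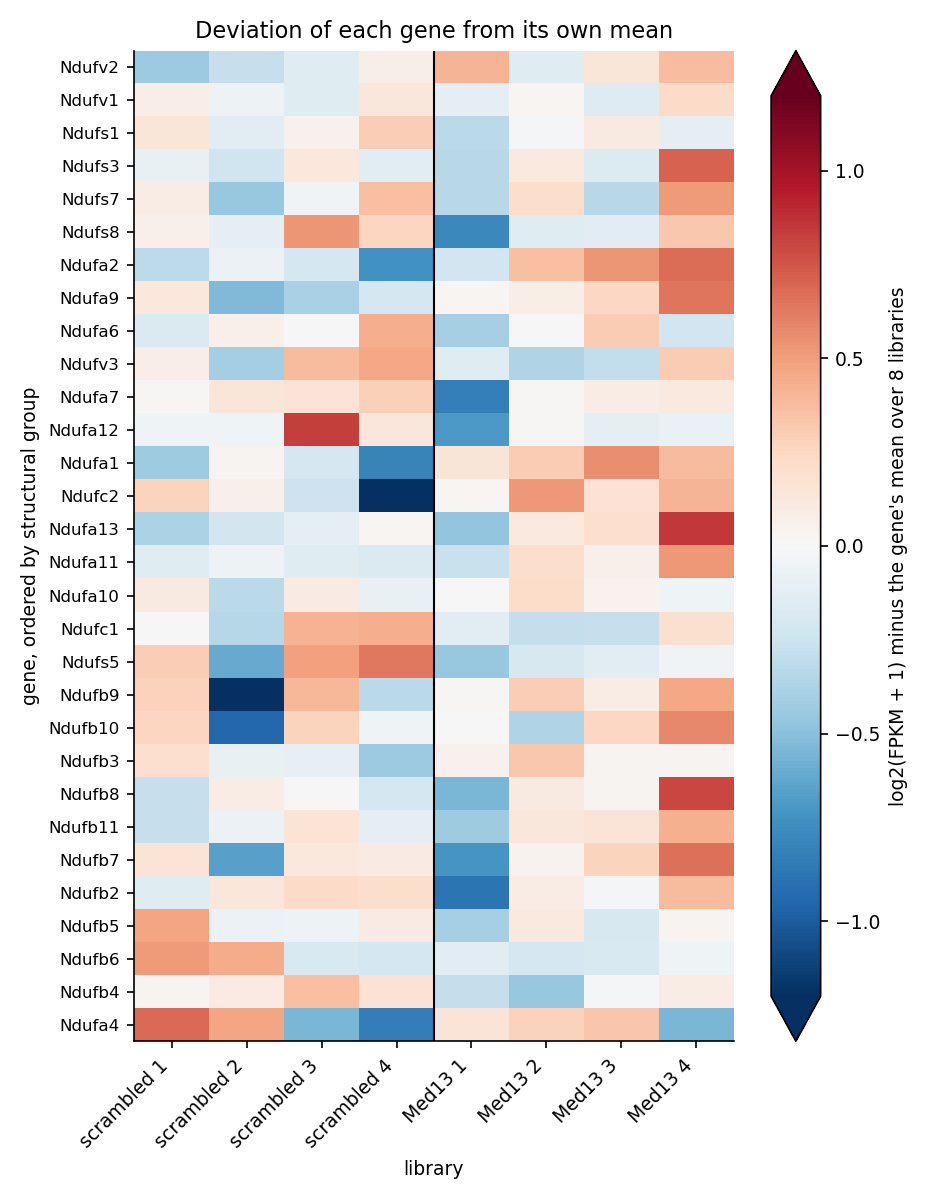
Deviation of the tested genes reported here (rows) from its own mean on log2(FPKM + 1) in each of the 8 libraries (columns; blue is below, red above the mean). The column of Med13 replicate 1 is mostly blue and that of Med13 replicate 4 mostly red; values beyond the colour scale are drawn at its ends.

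Single transcript rows were also tested, a step added after the data were seen. Of 77 member rows with a mean of at least 0.5 FPKM, 3 passed (3.90%) beside 12.9% of all 30731 rows tested, and these were the single Ndufa1 row and 1 row each of Ndufv3 and Ndufs1. Ndufv3 is known to give a short and a long protein through an internal exon. Its coding row of 493 bases (ENSMUST00000064798) was 1.26, 0.743, 1.95 and 1.81 FPKM in controls and 0.355, 0.541, 0.526 and 0.654 FPKM after Med13 morpholino, and all 4 lay below all controls (log2 fold change -0.66 ± 0.16 SE, limma adjusted p = 0.0194). The long coding row of 1582 bases (ENSMUST00000046288) had 0.20 ± 0.21 (SE, adjusted p = 0.574), and the difference between these rows was not tested. The call of the short row was lost without scrambled replicate 3 and without Med13 morpholino replicate 1, 2 or 3 (adjusted p up to 0.0621). A retained-intron row of Ndufs1 (ENSMUST00000186569, 2610 bases) was 0.8287, 1.30, 1.55 and 1.44 FPKM in controls and 0.588, 0.675, 0.574 and 0.787 FPKM after Med13 morpholino. It too lay lower in all 4 libraries (-0.45 ± 0.13 SE, adjusted p = 0.0352), while the sum of Ndufs1 was not called. That call was lost without scrambled replicate 3 or 4 and without Med13 morpholino replicate 1, 2 or 3 (adjusted p up to 0.0998). These rows held as few as 6.61 and 47.0 fragments in a library. The sources used here do not say how reads shared by isoforms were divided. With 1 library left out, between 0 member rows (without scrambled replicate 3 or Med13 morpholino replicate 2) and 7 (without scrambled replicate 2) passed. The shares of all rows that passed in those fits are not given here.

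Of the complex I subunits encoded in mitochondrial DNA, most were lower after Med13 morpholino. Their rows are among those in which the file's values stand 1 column off, so the values were realigned and Med13 morpholino replicate 4 has none for them. In that fit 5 of 7 were called lower, where 7.75% of all 12313 genes were. The 5 genes mt-Nd2, mt-Nd3, mt-Nd4, mt-Nd4l and mt-Nd5 lay lower in all 3 Med13 morpholino libraries with values than in all 4 controls. How many of all genes separate in this way with 3 against 4 libraries is not given here, so this count has no background. mt-Nd4 was 1283, 1515, 1948 and 2111 FPKM in controls and 969, 935 and 965 FPKM after Med13 morpholino (log2 fold change -0.81 ± 0.20 SE, limma adjusted p = 0.0193). mt-Nd2 had the largest difference, from 1462 ± 391 FPKM (SD, n = 4) to 629 ± 119 FPKM (SD, n = 3; -1.19 ± 0.24 SE, adjusted p = 0.00729). The other values were -1.05 for mt-Nd3, -1.03 for mt-Nd4l and -0.64 for mt-Nd5. mt-Nd1 and mt-Nd6 had -0.18 and -0.30 (adjusted p = 0.612 and 0.311), with overlapping groups. Leaving out scrambled replicate 3 left 3 calls, leaving out scrambled replicate 4 left 4, and leaving out Med13 morpholino replicate 2 or 3 left 2 each, mt-Nd2 and mt-Nd4l. For those fits the shares of all genes called are not given here. mt-Nd6 lies opposite mt-Nd5 and the strand setting is not given, so their reads may mix, and the nuclear and mitochondrial changes were not tested against each other.

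**Figure D5:**
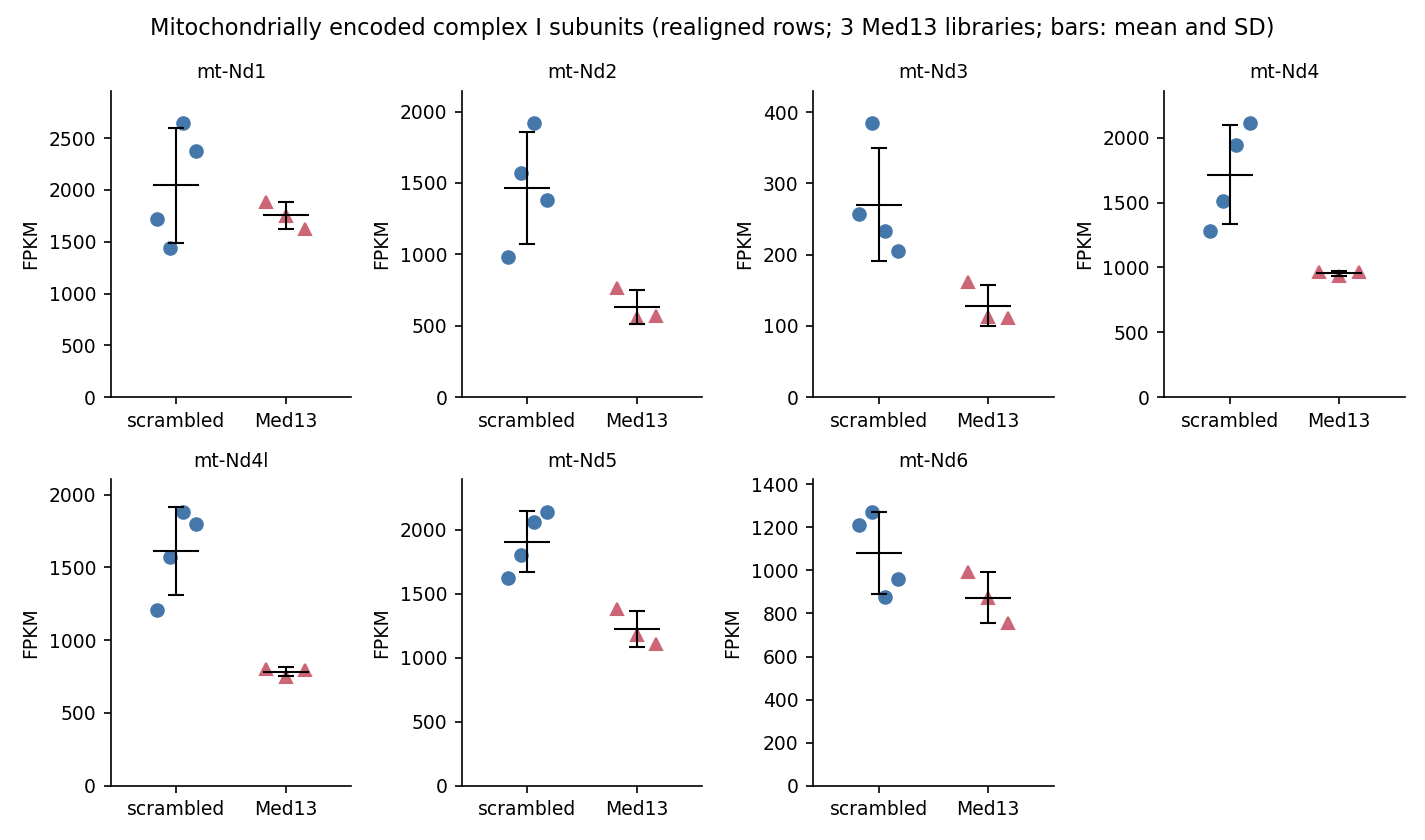
FPKM (y axis, from 0) of the 7 mitochondrially encoded complex I subunits in 4 scrambled (circles) and 3 Med13 morpholino (triangles) libraries, with mean and SD bars. The groups are apart for mt-Nd2, mt-Nd3, mt-Nd4, mt-Nd4l and mt-Nd5 and overlap for mt-Nd1 and mt-Nd6.

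Many of these genes share a start region with a gene on the other strand. By GENCODE M21, 17 of the 37 (45.9%) have another coding gene that starts within 1000 bases on the opposite strand, against 10.9% of all 21938 coding genes. Of 11 such partners that were tested, 1 was called, where 17.1% of all genes were. Mrpl36, a mitochondrial ribosomal protein gene 29 bases from the start of Ndufs6, fell from a mean of 3.79 ± 0.612 to 1.49 ± 0.129 FPKM (SD). Its log2 fold change was -0.94 (limma adjusted p = 0.00141). Ndufs6, which binds zinc in the peripheral arm, was at 0.636 ± 0.196 and 0.519 ± 0.174 FPKM, below the filter. The partner of Ndufa2, the splicing factor gene Ik, had a log2 fold change of -0.09, and that of Ndufa1, Rnf113a1, was at 1.17 ± 0.451 and 0.757 ± 0.275 FPKM, below the filter.

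Other genes of the pathway were read from the same fit. Of 11 tested complex I assembly factors, 0 rose and 2 fell, where limma called 9.29% of all genes higher and 7.81% lower. Ecsit, part of the assembly complex for the membrane arm and also a signalling adaptor, was 9.43, 5.31, 10.2 and 8.35 FPKM in controls and 2.78, 2.23, 3.23 and 2.40 FPKM after Med13 morpholino (log2 fold change -1.32 ± 0.19 SE, limma adjusted p = 0.00113). Tmem70, known above all for assembly of ATP synthase, was 8.40, 10.6, 9.37 and 10.6 FPKM in controls and 4.08, 4.96, 4.35 and 6.45 FPKM after Med13 morpholino (-0.86 ± 0.16 SE, adjusted p = 0.00514). For both genes the groups did not overlap, and both kept their call in each of the 18 alternatives run. Ndufaf4, the most abundant assembly factor, had -0.40 ± 0.25 (SE) and was not called. The acyl carrier protein Ndufab1 had -0.15 ± 0.16 (SE).

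Of 39 subunit genes of complexes II to V, 1 rose and 1 fell, with a median of -0.09. Over all genes tested 9.29% rose and 7.81% fell, with a median of -0.06. Cox7b, a small subunit of cytochrome c oxidase, was 10.97, 12.5, 10.5 and 9.05 FPKM in controls and 20.2, 22.3, 21.4 and 18.2 FPKM after Med13 morpholino, without overlap (log2 fold change 0.88 ± 0.15 SE, limma adjusted p = 0.00295). Uqcrfs1, the Rieske iron-sulfur protein of complex III, had -0.48 ± 0.15 (SE, adjusted p = 0.0461), and its call was lost when any library but Med13 morpholino replicate 4 was left out, and with median-ratio scaling, quantile normalization or no filter (adjusted p up to 0.142). The most abundant genes of complexes II, III, IV and V, Sdhd, Uqcr10, Cox7c and Atp5b, had log2 fold changes of 0.18, 0.02, -0.31 and -0.31 and were not called. Limma called 0 of 4 genes of complex II (0 at an unadjusted p below 0.05) and 0 of 16 of complex V (2 lower at an unadjusted p below 0.05). Over all genes 17.1% passed at an adjusted p and 32.4% at an unadjusted p below 0.05.

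Of 8 tested transcription factors and coactivators of respiratory genes, 0 rose and 2 fell, where 9.29% and 7.81% of all genes did. Yy1 was 65.8, 111, 45.6 and 32.3 FPKM in controls and 28.5, 23.2, 23.1 and 21.6 FPKM after Med13 morpholino (log2 fold change -1.22 ± 0.30 SE, limma adjusted p = 0.0164). All 4 values lay below the controls, which differed widely among themselves, and with no filter the adjusted p was 0.0813. Tfam, which packages and transcribes mitochondrial DNA, was 2.70, 1.96, 2.51 and 1.78 FPKM in controls and 0.524, 0.984, 1.29 and 1.57 FPKM after Med13 morpholino (-0.65 ± 0.18 SE, adjusted p = 0.0283), a call lost without scrambled replicate 1 or 3 and without Med13 morpholino replicate 1 or 2, and with no filter (adjusted p up to 0.0950). Gabpa, the most abundant of the list, had -0.37 ± 0.15 (SE) and was not called. These lists were chosen with earlier results of the data known, so their counts describe the libraries only.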

How the data were processed

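RNA from 8 libraries of pooled 2-cell embryos went through cDNA amplification (Ovation RNA-Seq System V2) before library preparation, per the labels' protocols. The authors deposited FPKM values per Ensembl transcript, in 97496 rows; per the submitters' processing notes BWA and mm10 were used, while the sources used here give no BWA version, counting tool, annotation or strand setting. In 3758 rows with a hyphenated symbol, none a member, the deposited values are moved by 1 column. These rows were left out of the main fit. They were realigned for 1 alternative fit, which gave the values of the mitochondrially encoded subunits, and for the globin markers. Of low values in these rows, 2652 matched the fragment step of the library to the left and 0 that of their own column. In the other rows the smallest common step of each library was taken to be 0.5 fragments, which gave the library totals. Of values up to 20 fragments there, 94.3% to 94.5% were multiples of that step within 0.005 fragments. The size of the step was set and not tested, and all fragment numbers given here rest on it. The totals bound counting precision only, since amplified cDNA without molecular identifiers gives no count of molecules.

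Rows were summed per symbol, a gene was kept where its mean reached 1 FPKM, and log2(FPKM + 1) was tested with limma 3.58.1 in R 4.3.3 (two-sided, without covariates, with a mean-variance trend; p-values adjusted by Benjamini-Hochberg over all 11755 genes). A fold change on this scale understates the change of low genes. Replicates are separate embryo collections, whose spread is what the p-values rest on. Transcript rows (mean of at least 0.5) were tested after the data were seen. GENCODE M21 gave lengths and positions (GRCm38, the assembly of mm10), and RefSeq the promoters; 32 of 37 members matched. Near-identical transcripts (blastn 2.17.0, at least 95% identity over 50% of the length) exist for Ndufb11, Ndufs3, Ndufs5, Ndufa12 and Ndufs6, and Ndufb6 and Ndufa13 overlap another gene in over 20% of exonic bases, so their values may include other reads. Alternatives were other pseudocounts, filters, scalings, sample weights, transcript choices and leaving out each library.

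The members and lists were chosen with earlier results of these data known. Values in every library are given for members that passed the test or whose groups did not overlap, for the core subunits (1 of them is not reported here and is left out of the figures, but is part of all counts) and for the most and least abundant members; of other lists, for genes that passed.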

Additional observations from a re-analysis of the deposited data

Results flagged for a closer look

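Of 62 groups of 4 libraries (31 tested genes in either group), 4 held a library far from the other 3 by Dixon's criterion at the 95% level, and chance alone gives about 1 in 20 groups. Ndufa12 was at 3.49 FPKM in scrambled replicate 3 and between 1.42 and 1.77 FPKM in the other controls. Ndufa7 was at 4.88 FPKM in Med13 morpholino replicate 1 and between 9.49 and 10.2 FPKM in the others. Ndufb3 was at 3.59 FPKM in Med13 morpholino replicate 2 and between 2.74 and 2.79 FPKM in the others. Ndufb7 was at 2.05 FPKM in scrambled replicate 2 and between 4.13 and 4.36 FPKM in the other controls.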

How the results depend on the processing

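Across 18 alternatives, 486 of 530 values of single subunit genes kept their direction and their side of the threshold; 15 lost and 10 gained a call, 19 changed sign, and 22 of 31 genes kept their direction throughout. The count of called subunit genes, 2 of 31, was 1 with a pseudocount of 0.1, 0 with no filter on low values, 9 with sample weights, 1 with the most abundant transcript only and 1 with the moved rows realigned, and from 0 to 3 with 1 library left out. It was 2 or 3 under the other alternatives. The calls over all genes with 1 library left out are not given here. Called genes overall fell to 1012 of 34976 with no filter, the setting that tests most genes; the cause of the other shifts was not tested. The median log2 fold change stayed between -0.04 and 0.15 with 1 library left out. The Med13 difference was -0.0245 with sample weights and -0.00105 to 0.10 with 1 library left out.

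Of the sign changes, Ndufv1 had 0.0299 with median-ratio scaling, Ndufb10 -0.14 and Ndufs7 -0.0649 with sample weights, and Ndufs1 0.0220 with protein-coding transcripts only. With 1 library left out, values ran from -0.0774 to 0.0490 for Ndufv1, -0.14 to 0.15 for Ndufs7, -0.0659 to 0.39 for Ndufb7, -0.14 to 0.36 for Ndufa4, -0.0430 to 0.39 for Ndufb10, -0.38 to 0.0433 for Ndufb2, -0.0360 to 0.41 for Ndufb8 and -0.0416 to 0.30 for Ndufs3. Transcript rows, chosen for testing after the data were seen, gave 3 calls among members with a pseudocount of 0.1 or 5. No paired analysis was made. The labels give the groups no shared replicate numbers, only serial numbers that alternate between the groups and are not said to pair libraries. Depth limits the low members: the leading row of a tested gene held as few as 3 fragments in a library.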
